A study of Mus musculus with 21 samples.

Results

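The genes described here encode the proteins of the cytosolic ribosome. They were chosen by name, as protein-coding genes whose symbol is Rpl or Rps followed by a number, with a closing letter where there is one, together with Rplp0, Rplp1, Rplp2 and Rpsa. The choice gave 84 of the 56953 genes in the count files, with 51 genes for proteins of the large subunit and 33 for proteins of the small subunit. They lie on 19 chromosomes.

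The cytosolic ribosome translates mRNA into protein, and its large and small subunits are each built from rRNA and a set of mostly small, basic proteins that are needed in matched amounts. Ribosomal protein mRNAs are among the most abundant in dividing and growing cells. Most of them begin with a C followed by a run of pyrimidines, the 5′ terminal oligopyrimidine (TOP) motif, through which mTORC1 and LARP1 control how much of the mRNA is translated, so the mRNA level does not by itself give the rate at which the protein is made. Lymphocytes build more ribosomes when they grow after activation.

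RNA was sequenced from sort-purified peritoneal B cells of C57BL/6 mice. TET2-KO mice lack TET2, an enzyme that oxidizes 5-methylcytosine, in all tissues, from a Tet2 allele without exons 8, 9 and 10, which encode the catalytic region, and TET2-WT mice were the controls. B-1a cells were sorted as IgD-lo, CD23-lo, B220-lo and CD5+ cells, and B-1b cells with the same gates but as CD5- cells. B-2 cells, the conventional B cells, were sorted from the same cavity. The study calls its mice young, and an exact age and the sex are not given in the sources used here. The 21 libraries comprised 4 from WT and 4 from TET2-KO mice for the B-1a subset, 4 and 3 for B-1b, and 2 and 4 for B-2, and each is named here by its subset, genotype and labelled number. The labels number the libraries but do not say that each came from a separate mouse, so the p-values measure the spread between these libraries.

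Total counts ran from 9667187 to 24152518 per library. The whole-gene counts of Tet2 include exons outside the deleted region and so check no label. They ran from 8.45 to 27.2 CPM in WT libraries and from 12.6 to 30.1 in TET2-KO libraries. CPM here is counts divided by the product of the library's total and its TMM normalization factor, scaled to 1e+06. In the TET2-KO libraries the subset markers followed the labels: Fcer2a, which encodes the B-2 surface protein CD23, ran from 480 to 833 CPM in B-2 cells and from 4.61 to 42.6 in B-1 cells. In the WT libraries labelled 1 and 2 they did not. Fcer2a was at 815 CPM in the library labelled B-1a WT 1 and at 598 in that labelled B-1b WT 2, while the library labelled B-2 WT 1 had 24.2 CPM of Fcer2a and 471 of Zbtb32, a B-1 gene. The libraries labelled B-1b WT 1 and B-1a WT 2 had 18.7 and 1.64 CPM of Cd5, the reverse of what their gates would give. All labels were kept, and the main WT comparisons are given with and without these libraries. Genes of the olfactory receptor family, which B cells are not known to use, also differed between libraries. By library totals alone, they summed to 270 to 2003 CPM in B-2 TET2-KO libraries and to 73.4 to 310 in B-1a TET2-KO libraries.

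Because the TOP motif sits at the first base of the mRNA, the sequence around the annotated start is shown for 6 genes on which the results below turn. Each line gives 15 bases before and 15 bases from the start, from RefSeq on GRCm38.p6, in the direction of the gene, and capitals mark a run of C followed by at least 4 pyrimidines only where it begins within 5 bases of the start, so that runs farther away stay in lower case.
Rps6, chr4:86857353-86857382, minus strand: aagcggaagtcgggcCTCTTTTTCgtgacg
Rps18, chr17:33955651-33955680, minus strand: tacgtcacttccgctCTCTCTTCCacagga
Rpl22l1, chr3:28805493-28805522, plus strand: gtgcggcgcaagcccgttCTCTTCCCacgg
Rps12, chr10:23787195-23787224, minus strand: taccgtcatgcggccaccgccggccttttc
Rplp0, chr5:115559452-115559481, plus strand: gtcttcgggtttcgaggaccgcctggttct
Rpl22, chr4:152324421-152324450, plus strand: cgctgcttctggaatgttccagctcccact

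In Rps6 and Rps18 the run began exactly at the annotated start, and in Rpl22l1 it began 3 bases after it. No such run lay within 5 bases of the annotated start of Rps12, Rplp0 or Rpl22. Of the 84 genes, 63 were in the RefSeq table, and 13 of them (20.6%) had the run at the start, against 813 of 27025 genes in the whole table (3.01%). Allowing 5 bases on either side, the shares were 46.0% and 21.2%. The search used the gene's own strand alone, and annotated starts can differ by some bases from those used in these cells, so a missing run says only that none began within 5 bases of this annotated start.

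The ribosomal protein genes took 4.89% to 7.76% of all counts, with a median of 6.15% over the 21 libraries. Counting error was small beside this spread, since the 95% Wilson interval for the library labelled B-1b WT 1, the highest, ran from 7.75% to 7.77% and covers counting error only. B-1a TET2-KO libraries stood at 6.10%, 7.65%, 6.71% and 7.74%, or 7.05% ± 0.784 (SD, n = 4). B-2 TET2-KO libraries stood at 5.33%, 5.09%, 5.52% and 6.15%, or 5.52% ± 0.456 (SD, n = 4). The groups overlapped in the plain share, by the lowest B-1a library and the highest B-2 library, but by number the B-1a library was the higher in each of the 4 pairs, by 0.777 to 2.56 percentage points. B-1b TET2-KO libraries, at 5.54%, 6.21% and 4.89%, overlapped both. In WT mice the means were 6.51% ± 0.430 (SD, n = 4) in B-1a, 6.21% ± 1.17 (SD, n = 4) in B-1b and 6.04% ± 0.237 (SD, n = 2) in B-2 cells, and the B-1b WT libraries ranged from 4.96% to 7.76%. Fewer cells of a type and less of these mRNAs per cell cannot be told apart in such pooled RNA.

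**Figure D1:**
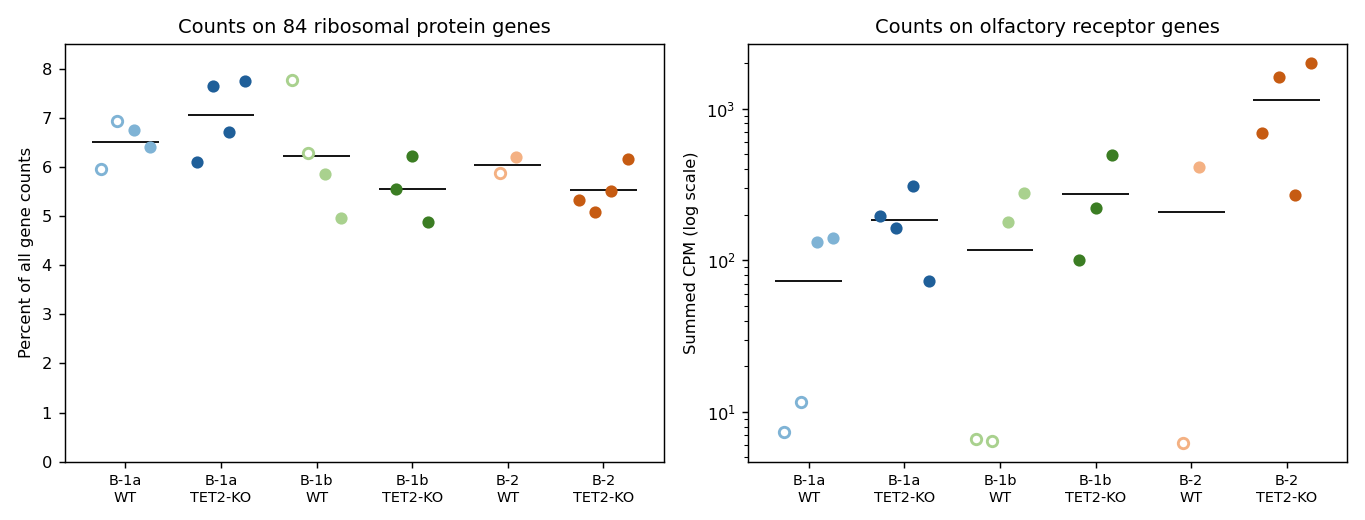
Percent of all gene counts that fell on the 84 ribosomal protein genes (left, from 0) and summed CPM of olfactory receptor genes (right, log axis), by library and group, with the group mean as a black line and open circles for the libraries labelled WT 1 and WT 2. B-1a TET2-KO libraries reached from 6.10% to 7.74% and B-2 TET2-KO libraries from 5.09% to 6.15%, the B-1b WT libraries spread most, and the olfactory sum reached 2003 CPM in B-2 TET2-KO cells.

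In many libraries, but not in all, the genes rose or fell together. Each library was compared with the mean of its own group over the 80 genes with at least 10 counts in every library. In the library labelled B-1b WT 1, 79 of these 80 genes were above the group mean, while in B-1b WT 4 only 1 was. Among TET2-KO libraries the counts were 80 in B-2 KO 3 and 2 in B-2 KO 2, 77 in B-1a KO 2 and 6 in B-1a KO 1, and 79 in B-1b KO 2 and 0 in B-1b KO 3. In other libraries the genes were split, with 44 above in B-1a KO 4, 33 in B-1a WT 3 and 26 in the library labelled B-1a WT 1. A shift of 1 library could thus move nearly all members in the same direction. A count of members on the same side of 0 in a comparison is therefore not a count of independent genes.

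Levels differed much more between the genes than between groups. Levels of different genes were compared as CPM per kilobase of exon length, and by this measure the median of the 80 genes was 332. Rpl32, a large-subunit protein, was among the highest, with a mean of 1601 CPM per kilobase and a range of 1052 to 2421 over the 21 libraries. Rpl36 (1511), Rps3a1 (1464) and Rplp1 (1463) were close to it, and the ranges of these 4 overlapped. The order depends on the summed annotated exon length, which was 383 bases in Rpl36 and 6270 in Rps15a. Without division by length, Rpl32, Rps3a1, Rplp1 and Rpl36 ranked 7, 12, 31 and 41 among the 84 genes. At the low end stood the paralogues Rpl7l1 (46.9), Rpl22l1 (26.8) and Rps4l (17.5), and then Rpl13a (8.31) and Rps10 (1.41). Rpl24 had 2.08 CPM per kilobase and as few as 6 counts in a library. Rpl13a, Rps10 and Rpl24 encode core proteins of the ribosome. Of the 84 genes, 38 shared some exon bases with other annotated genes and 7 shared over 25%, and fragments that overlap more than 1 gene were not counted. These 3 genes were among the 7, with 35.4% of exon bases shared in Rpl13a, 28.7% in Rps10 and 47.0% in Rpl24, and the gene with the most shared bases in each case was at 0 CPM in all 21 libraries. The other 4 were not low: Rpl35 (66.2% shared) had 485 CPM per kilobase, Rpl23a (62.3%) 211, Rpl31 (25.3%) 181 and Rpl5 (26.7%) 164. The part of the overlap in these levels was not tested.

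**Figure D2:**
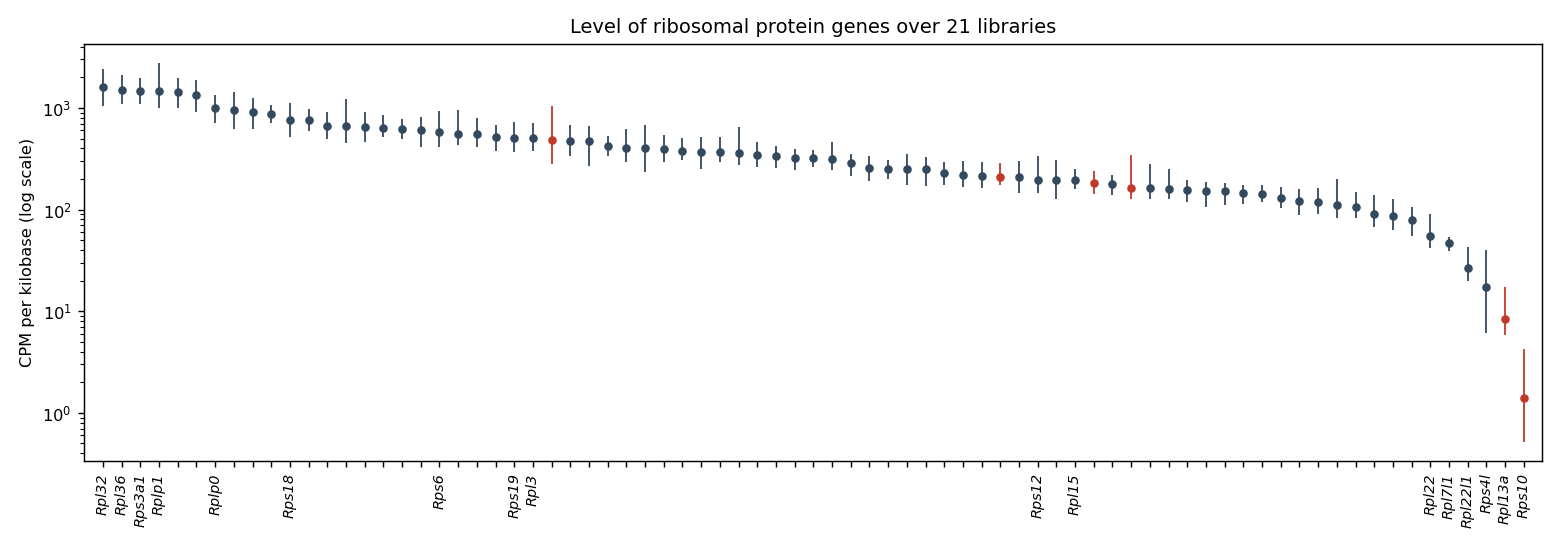
Mean level of the ribosomal protein genes in CPM per kilobase on a log axis, in order of level and with some of them named, with bars from the lowest to the highest of the 21 libraries and red marks for genes with over 25% of exon bases shared with another gene. Rpl32 stood at 1601, and Rpl13a at 8.31 and Rps10 at 1.41 lay far below the median of 332.

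Of the 84 genes, 76 had at least 1000 counts in every library and 3 were at 0 in some library. The last were Rpl10l, Rpl3l and Rpl39l, close copies of Rpl10, Rpl3 and Rpl39 that are known from testis or muscle. Rpl10l had no count in 19 libraries and 0.136 and 0.134 CPM in the remaining 2, and Rpl3l reached at most 0.518 CPM. These 2 genes were too low to be tested in any comparison, and Rpl39l was too low for that of B-2 cells between genotypes, so 82 or 81 genes were tested. Processed copies of these mRNAs are common in the genome, and fragments that map to more than 1 place were not counted. Over windows of 100 bases along the coding sequence, 23 genes had every window repeated exactly elsewhere in the genome, 52 had some and 9 had none. The 322 pseudogenes named after these genes took 0.0271% to 0.0516% of counts, far less than the genes themselves.

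The first question was whether the ribosomal protein genes differ between B-1a and B-2 cells, asked among TET2-KO libraries, whose markers followed their labels. They were higher in B-1a cells. In a quasi-likelihood test by edgeR, adjusted by Benjamini-Hochberg over 18555 genes, 16 of 82 ribosomal protein genes rose and 0 fell, where 5.82% of all genes tested passed and 3.26% passed as higher. Of the 82 genes, 81 had a log2 fold change above 0, where 46.8% of all genes had, with a median of 0.60 and quartiles of 0.51 and 0.68, while the median over all genes was -0.05. The 16 genes were split evenly, with 8 of 49 from the large subunit (median log2 fold change 0.58) and 8 of 33 from the small subunit (median 0.61).

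Rps12, a protein of the small subunit, had the largest change among the genes that passed. It is annotated on chromosome 10 from 23661081 to 23663173 of GRCm39, on the minus strand. Its normalized CPM was 380, 591, 452 and 623 in the 4 B-1a TET2-KO libraries and 265, 239, 294 and 255 in the 4 B-2 libraries. In these CPM the groups did not overlap, and Rps12 was 1.89-fold higher in B-1a cells (log2 fold change 0.92 ± 0.19 SE, adjusted p = 0.00954). The separation depended on the TMM factors, which were 0.953 in B-1a KO 1 and 1.54 in B-2 KO 4. By library totals alone the groups overlapped, since B-1a KO 1 (6028 of 16669279 counts) was below B-2 KO 4 (3790 of 9667187). B-1b TET2-KO libraries, at 339, 413 and 291, overlapped both groups.

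The ribosomal stalk, made of Rplp0, Rplp1 and Rplp2, recruits elongation factors to the large subunit. Rplp0, on chromosome 5 from 115697526 to 115701786 on the plus strand, stood at 1763, 2243, 1810 and 1731 CPM in B-1a and at 1061, 944, 1265 and 833 in B-2 libraries. All B-1a libraries were above all B-2 libraries, and the log2 fold change was 0.85 ± 0.19 (SE, adjusted p = 0.0130). Rplp1 stood at 719, 1057, 805 and 1255 CPM against 556, 472, 583 and 466, with a log2 fold change of 0.85 ± 0.21 (SE, adjusted p = 0.0260). In these CPM Rplp2 also did not overlap between the groups, but its log2 fold change of 0.51 ± 0.21 (SE) did not pass (adjusted p = 0.145). By library totals alone both Rplp1 and Rplp2 overlapped.

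Among the other proteins of the small subunit, Rps18, which lies in the head of the subunit, stood at 2185, 2985, 1946 and 1919 CPM in B-1a and 1384, 1154, 1490 and 830 in B-2 libraries (log2 fold change 0.86 ± 0.24 SE, adjusted p = 0.0464). Rps3a1 rose by a log2 fold change of 0.79 ± 0.19 (SE, adjusted p = 0.0190). Rps6, the substrate of the S6 kinases downstream of mTORC1, rose by 0.76 ± 0.20 (SE, adjusted p = 0.0367) on that scale, and Rps27a, which is made as a fusion with ubiquitin, by 0.75 ± 0.21 (SE, adjusted p = 0.0432). In CPM with TMM factors the groups did not overlap in any of these 4 genes, but by library totals alone they did in Rps27a. Rps7 also passed, at 0.72.

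In the large subunit, Rpl32 stood at 1774, 2462, 1499 and 1671 CPM in B-1a and at 1140, 891, 1166 and 816 in B-2 libraries (log2 fold change 0.85 ± 0.23 SE, adjusted p = 0.0418). Rpl3, which lies near the peptidyl transferase centre, had a log2 fold change of 0.76 ± 0.19 (SE, adjusted p = 0.0238). Rpl22, Rpl10a, Rpl27a and Rpl29 passed at 0.71, 0.69, 0.67 and 0.60. Over the 16 genes that passed, the lowest B-1a library exceeded the highest B-2 library by a ratio of 1.08 to 1.37 in CPM with TMM factors. The gap between the groups was thus small in some of them. By library totals alone several of the 16 overlapped, Rpl22 and Rpl29 among them.

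Genes just short of the threshold had log2 fold changes of like size. Rps2, next in order, had a log2 fold change of 0.68 and an adjusted p of 0.0507. Over all 82 genes, 72 had an unadjusted p under 0.05, against 24.7% of all genes tested. In CPM with TMM factors, every B-1a library was above every B-2 library in 62, against 8.96% of all genes. This was not counted by library totals, by which several of these genes overlapped. Rpl5 and Rpl11, which bind 5S rRNA and can hold Mdm2 away from p53, had log2 fold changes of 0.63 ± 0.23 and 0.55 ± 0.18 (SE) and did not pass. Rps19 and Rps14, whose loss is known from anaemias, had 0.67 ± 0.22 and 0.65 ± 0.22 (SE), and Rpsa, also known as a laminin receptor, had 0.55 ± 0.20, again without passing. The 5 lowest log2 fold changes were those of Rpl24 (-0.18), Rpl30 (0.29), Rps27 (0.32), Rps10 (0.35) and Rpl22l1 (0.37). Rpl39l had a fitted value of 2.90 ± 1.5 (SE), which rested on 1 library: it was at 8.77 CPM in B-1a KO 4 and between 0 and 0.693 in the other 3 B-1a libraries.

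**Figure D3:**
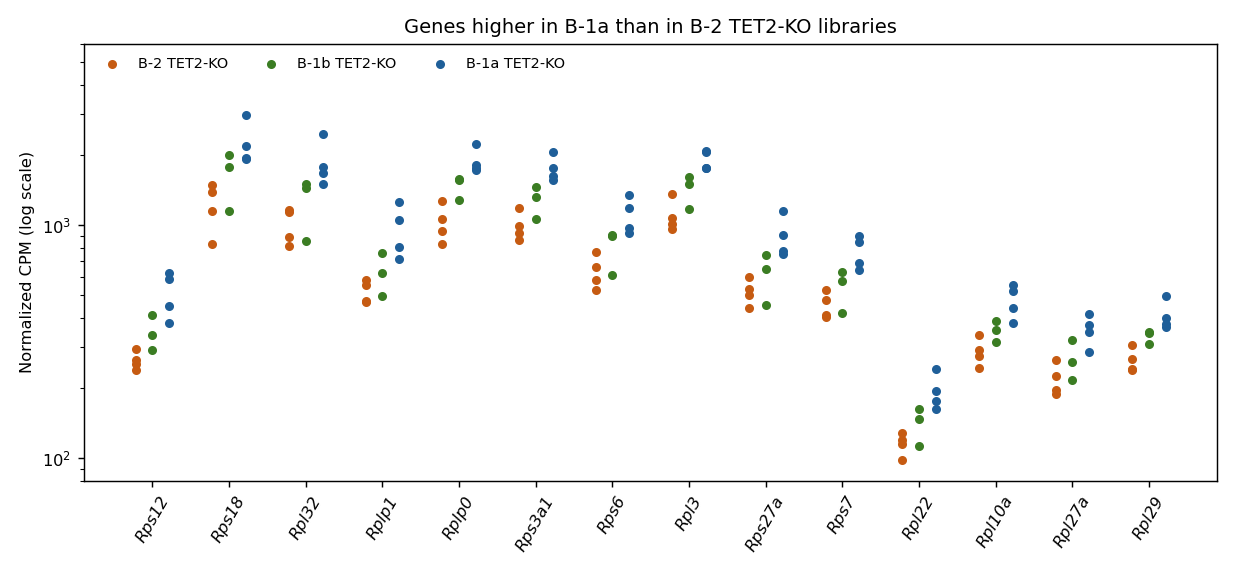
Normalized CPM on a log axis of ribosomal protein genes that passed between B-1a and B-2 TET2-KO cells, with 1 point per TET2-KO library of each subset. In these CPM, which use TMM factors, each gene shown has all B-1a libraries above all B-2 libraries. B-1b libraries lie between them or overlap either group.

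The number of genes that passed depended on the libraries and on the fit. Leaving out 1 library at a time gave between 2 and 13 genes. Only 2 of 82 passed without B-1a KO 2, without B-2 KO 1 or without B-2 KO 2, where 3.71%, 3.87% and 3.57% of all genes did in either direction. As higher, 438 of 18335, 407 of 17716 and 359 of 17044 genes passed in these 3 fits, about the same share as 2 of 82. The count was 5 without B-2 KO 4 (4.56% of all genes), 13 without B-2 KO 3 (6.52%), and 8, 9 and 10 without B-1a KO 3, 1 and 4 (3.98%, 4.91% and 5.6%). The median log2 fold change stayed between 0.53 and 0.65 in these fits. With DESeq2, fitted to all 84, 36 passed, where 7.77% of the 44737 genes with a count did. Shares for DESeq2 count genes that it may have left without an adjusted p as not passing, so they can be too low. With the replicate number as a block 29 of 82 passed, where 8.83% of all genes did. With library totals in place of TMM factors, 7 passed (5.9% of all genes) and the median was 0.34, with a median over all genes of -0.32. With no filter on low counts 33 of 84 passed (3.8% of all genes), with all 21 libraries in 1 fit 10 of 82 (3.45%), and at an absolute log2 fold change over 1 none of 82 (4.49%). In every one of these fits each gene that passed was higher in B-1a cells.

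Other measures moved with this comparison. Summed olfactory receptor CPM was 694, 1618, 270 and 2003 in the B-2 TET2-KO libraries and 196, 162, 310 and 73.4 in the B-1a TET2-KO libraries. With this rate as a covariate 0 ribosomal protein genes and 1.51% of all genes passed, and the median log2 fold change was 0.29 with 80 of 82 genes above 0. Without B-2 KO 2 and B-2 KO 4, the libraries with the most olfactory counts, 0 ribosomal protein genes and 2.46% of all genes passed, the median was 0.47, and an unadjusted p under 0.05 was reached by 31. In the pair labelled 3, where the rates were alike at 310 and 270 CPM, ribosomal protein genes took 6.71% of counts in B-1a and 5.52% in B-2 cells. This is 1 library of each subset, singled out by its rates, and no test was made on it. More genes were detected in B-2 libraries (27669 to 35576) than in B-1a libraries (18941 to 28140). The 8 macrophage markers summed to 6188 to 33278 CPM in B-1a and 4974 to 22647 in B-2 libraries, with none of the 8 passing, and the 8 T-cell markers to 32.9 to 75.6 and 30.2 to 42.9, with 1, Cd3g, passing as higher in B-1a cells. Of 5 plasma cell markers tested 2 passed as higher in B-1a cells, Prdm1 (log2 fold change 1.93, adjusted p = 0.0209) and Jchain (2.25, adjusted p = 0.0226). Of the 5, 4 had a log2 fold change above 0. Sdc1 went the other way without passing, at 0 to 2.65 CPM in B-1a and 4.16 to 5.91 in B-2 libraries. The 6 markers of the list summed to 132 to 266 CPM in B-1a and 119 to 249 in B-2 libraries. The part of these measures in the result was not tested beyond the values given.

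Genes of the pathways around the ribosome were compared in the same fit, where 3.26% of all genes passed as higher. Of 8 elongation factor genes tested, 3 rose and 0 fell in B-1a cells, and their median was 0.68 on the log2 scale. They were Eef1a1, which brings aminoacyl-tRNA to the ribosome (0.77, adjusted p = 0.0325), and Eef1b2 and Eef1g, which belong to its exchange factor (0.73 and 0.70). Of 21 other RNAs known to begin with a TOP motif 6 rose and 0 fell, with a median of 0.53. Of 39 initiation factor genes 1 rose, Eif4b, which aids the helicase that opens mRNA (0.85, adjusted p = 0.0145), and the median was 0.26. Of 49 genes for rRNA synthesis and ribosome assembly 3 rose and 0 fell, with a median of 0.27. Myc, a transcription factor that drives ribosome synthesis, had the largest of these changes at 1.49, Polr1a, the large subunit of RNA polymerase I, had 1.17, and Npm1, a nucleolar chaperone, had 0.78. The lists share genes. Of the TOP RNAs that rose, Eef1a1, Eef1b2, Eef1g, Eif4b and Npm1 are also in the other lists, and the remaining one is Gas5.

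No gene passed in the lists for the control of these mRNAs and for the 5S particle. None of the 17 genes of mTORC1 signalling to TOP mRNAs passed (median 0.28), where 5.82% of all genes did. None of the 10 genes of the 5S particle and p53 axis passed (median 0.36). Of 77 mitochondrial ribosomal protein genes tested 1 rose, where 3.26% of all genes did, with a median of 0.26. These genes took 0.458% to 0.677% of counts in B-1a and 0.479% to 0.557% in B-2 TET2-KO libraries. Among ribosome proteins that fall outside the naming rule 0 of 4 passed, with Rack1, a scaffold on the small subunit, at a log2 fold change of 0.59 and Fau at 0.34. In the other 6 comparisons none of the genes in any of these lists passed.

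Genes with and without a run of pyrimidines at the annotated start had like median differences. Annotated starts can differ from those used in these cells, so genes with no run here may still carry a TOP motif. The comparison therefore cannot show whether the motif goes with the size of the difference. The median log2 fold change between B-1a and B-2 cells was 0.58 over the 13 genes with the run at the start and 0.61 over the 32 genes with no run within 5 bases. Among the 9 genes that passed and were in the RefSeq table, a run at the start was found in 2, and among the 52 that were tested and did not pass in 11. Rps12, Rplp0 and Rpl22, shown above, passed with no run within 5 bases of the start, while Rps6 and Rps18 passed with it.

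By median log2 fold change with TMM factors, B-1b TET2-KO cells lay between the other subsets. Against B-2 cells 0 of 82 ribosomal protein genes passed, where 2.15% of all genes did, and the median log2 fold change was 0.19 with 78 genes above 0, against 44.4% of all genes, but with library totals in place of TMM factors 35 were above 0 and the median was -0.01. The smallest adjusted p was that of Rplp0, 0.209, at a log2 fold change of 0.48 ± 0.20 (SE), with 1560, 1574 and 1289 CPM in the B-1b libraries. Rpl7l1 and Rps12 had 0.34 ± 0.19 and 0.36 ± 0.21 (SE). Only 1 gene had an unadjusted p under 0.05, against 19.6% of all genes, and in 2 genes all B-1b libraries were above all B-2 libraries, against 8.04%. The median was 0.07 without B-2 KO 2 and 4, and -0.08 with the olfactory rate as a covariate, so its direction depended on the fit.

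Between B-1a and B-1b TET2-KO cells 0 of 82 passed, where 0.205% of all genes did. All 82 genes had a fold change above 0, against 54% of all genes, with a median of 0.41 on the log2 scale, and 22 had an unadjusted p under 0.05, against 5.78% of all genes. In 18 genes every B-1a library was above every B-1b library, against 2.98% of all genes. The smallest unadjusted p values belonged to Rplp1 (log2 fold change 0.62 ± 0.23 SE, adjusted p = 0.777), Rps12 (0.56 ± 0.21 SE, adjusted p = 0.790) and Rpl35 (0.77 ± 0.29 SE, adjusted p = 0.797). Rpl35 stood at 635, 863, 504 and 1175 CPM in the B-1a libraries and 525, 579 and 298 in the B-1b libraries, so the groups overlapped. Leaving out 1 library at a time moved the median from 0.26 to 0.57. The 3 subset comparisons share libraries and are not independent of each other.

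**Figure D4:**
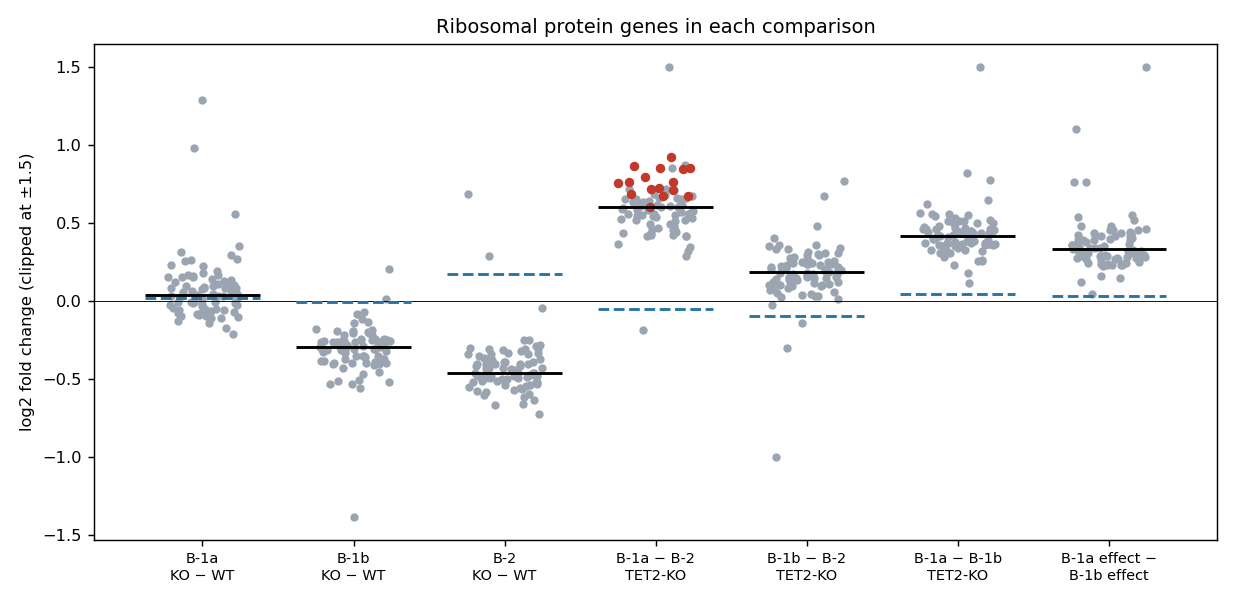
Log2 fold change of each tested ribosomal protein gene in the 7 comparisons, with red points for an adjusted p under 0.05, a black line at their median and a blue dashed line at the median of all genes tested, drawn to 1.5 on either side. Red points appear only between B-1a and B-2 TET2-KO cells, where the median was 0.60, and between genotypes 80 of 82 points lie below 0 in B-1b and 79 of 81 in B-2 cells, before any library is left out.

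The second question was what loss of TET2 does to these genes within each subset. In B-1a cells 0 of 82 passed, where 0.0503% of all 13923 genes did. The median log2 fold change was 0.04, with quartiles of -0.04 and 0.13, beside a median of 0.02 over all genes. With 51 genes above 0, where 52.4% of all genes were, and 31 below, the genes did not share a direction with TMM factors, while with library totals 75 were above 0 and the median was 0.15, beside 0.14 over all genes. In no gene were all TET2-KO libraries above or below all WT libraries, where 2.18% and 3.38% of all genes were. Only 1 gene had an unadjusted p under 0.05, against 7.85% of all genes. The 3 smallest unadjusted p values, none of which passed after adjustment, were those of Rpl22l1 (log2 fold change 0.35 ± 0.14 SE, adjusted p = 0.622), Rps10 (0.98 ± 0.48 SE, adjusted p = 0.641) and Rpl17 (0.29 ± 0.18 SE, adjusted p = 0.649). Rps10 had 2.71, 3.40, 3.05 and 8.88 CPM in TET2-KO and 1.41, 2.27, 2.41 and 3.34 in WT libraries, and its value rested on B-1a KO 4, without which it was 0.39. With the WT libraries labelled 1 and 2 left out, 65 of the 82 genes were above 0 and the median was 0.09.

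In B-1b cells 0 of 82 passed, and 0 of all 14368 genes did (0%). At an unadjusted p under 0.05 there were 0 ribosomal protein genes and 787 genes in all (5.48%). DESeq2 called 49 of the 36436 genes with a count (0.134%) and none of the ribosomal protein genes. The median log2 fold change was -0.29, with 2 genes above 0, against 49.5% of all genes, and 80 below. Rps19, a protein of the small subunit's head, stood at 2156, 2381 and 1455 CPM in TET2-KO and at 4551, 3107, 2217 and 1852 in WT libraries, with a log2 fold change of -0.52 ± 0.32 (SE, adjusted p = 0.839). The groups overlapped, and the highest values were those of the libraries labelled WT 1 and WT 2. Rpl19 and Rpl15 had -0.38 ± 0.24 and -0.41 ± 0.25 (SE). Without the library labelled B-1b WT 1 the median was -0.09, and without both WT 1 and WT 2 it was 0.05 with 57 of 82 genes above 0, so its direction rested on these libraries.

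In B-2 cells 0 of 81 passed, and 0 of all 19786 genes did (0%). At an unadjusted p under 0.05 there were 10 ribosomal protein genes and 1754 genes in all (8.86%). DESeq2 called 144 of the 43252 genes with a count (0.333%) and none of the ribosomal protein genes. The median log2 fold change was -0.46, beside a median of 0.18 over all genes, with 2 genes above 0, against 58.3% of all genes. In 67 genes every TET2-KO library was below both WT libraries, against 7.26% of all genes. Rplp0 stood at 1061, 944, 1265 and 833 CPM in TET2-KO and 1994 and 1447 in WT libraries, a log2 fold change of -0.72 ± 0.27 (SE, adjusted p = 0.531). Rps12 had -0.60 ± 0.21 and Rpl32 -0.66 ± 0.26 (SE, adjusted p = 0.531 for both). The higher WT value of Rplp0 was that of the library labelled WT 1, which carried B-1 markers. Without it 1 WT library was left, and the median was -0.35. With library totals it was -0.08 with 22 of 81 genes above 0, beside 0.54 over all genes.

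An interaction term tested whether the effect of genotype differed between the B-1 subsets. None of the 82 genes passed, and 0 of all 15972 genes did (0%). At an unadjusted p under 0.05 there were 0 ribosomal protein genes and 250 genes in all (1.57%). DESeq2 called 1 of the 41707 genes with a count (0.0024%), which was not a ribosomal protein gene. All 82 fitted values were above 0, against 53.2% of all genes, with a median of 0.33, and the 3 smallest unadjusted p values were those of Rpl17 (0.55 ± 0.31 SE), Rpl6 (0.48 ± 0.28 SE) and Rpl22l1 (0.48 ± 0.29 SE), each with an adjusted p of 1.00. Leaving out the WT libraries labelled 1 and 2 gave a median of 0.03, so the common sign was again that of these libraries.

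The last question was whether cells change between paralogues, since a few ribosomal proteins have a second gene that can take their place. Rpl22 binds structured RNA and is known to hold down the mRNA of its paralogue Rpl22l1. On GRCm39, Rpl22 lies on chromosome 4 from 152410199 to 152418528 and Rpl22l1 on chromosome 3 from 28859585 to 28861573, both on the plus strand. As a share of both genes, in CPM per kilobase, Rpl22l1 made up 38.9%, 39.2%, 38.7% and 37.3% in the B-2 TET2-KO libraries. These 4 libraries were above all 17 others. The B-1a TET2-KO libraries followed at 33.2%, 34.0%, 33.1% and 32.1%, and the B-1a WT libraries were at 30.0%, 28.5%, 30.6% and 30.1%. The B-1b libraries spread widely, from 28.7% to 34.9% in WT and from 28.8% to 35.1% in TET2-KO cells, and the B-2 WT libraries were at 30.1% and 32.7%.

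The share in B-1a minus that in B-2 TET2-KO cells was -5.40 percentage points (33.1% ± 0.774 against 38.5% ± 0.850, SD, n = 4 each). For B-1b minus B-2 TET2-KO cells it was -6.44 points, and the share was 3.30 points higher in B-1a TET2-KO than in B-1a WT cells (29.8% ± 0.930, SD, n = 4). Each of the 3 differences had p = 0.0286 by a two-sided exact permutation test, the smallest that these group sizes allow, and an adjusted p of 0.229 over the 24 such tests of 4 pairs, so none passed. In B-2 cells the share was 7.10 points higher in TET2-KO than in WT libraries, with p = 0.0667 by the exact permutation test, the smallest possible with 4 against 2 libraries, and an adjusted p of 0.400. Leaving out 1 library at a time kept the B-1a genotype difference between 2.86 and 3.64 points, and with WT 1 and WT 2 left out it was 2.73. In B-2 cells, with WT 1 left out, the share was 32.7% in WT 4, beside 38.5% in TET2-KO cells. The pair was singled out after its values were seen.

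**Figure D5:**
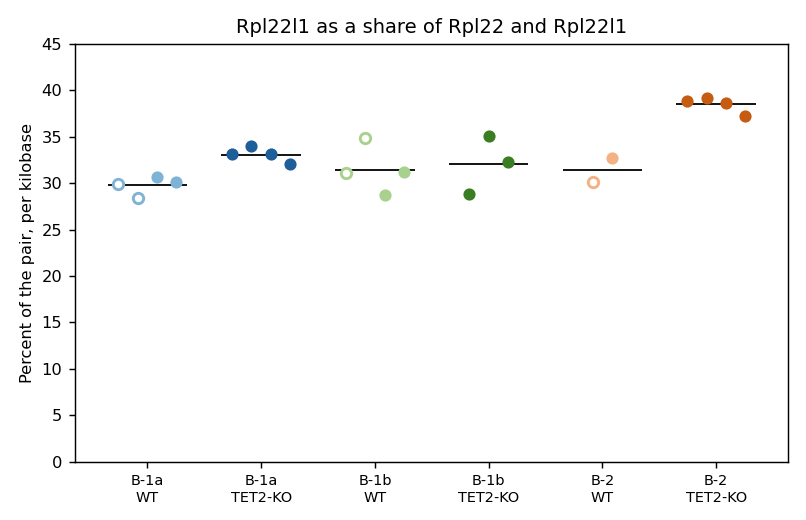
Rpl22l1 as a percent of Rpl22 and Rpl22l1 together, in CPM per kilobase, by library and group, with group means as black lines and open circles for the libraries labelled WT 1 and WT 2. The 4 B-2 TET2-KO libraries, at 37.3% to 39.2%, sit above all others.

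Behind these shares, Rpl22 was at 163 to 241 CPM in B-1a and 97.9 to 128 in B-2 TET2-KO libraries, while Rpl22l1 was at 55.3 to 77.8 and 43.1 to 55.0. In CPM with TMM factors both genes were higher in every B-1a than in every B-2 library, and Rpl22 by more. For Rpl22l1 the gap was only from 55.0 in B-2 KO 3 to 55.3 in B-1a KO 1. By library totals alone the groups overlapped in both genes, and Rpl22l1 did not pass. In no other pair did the share set the B-2 TET2-KO libraries apart from all others. Rpl7l1, a relative of Rpl7 with a role in ribosome assembly, made up 7.37% to 14.7% of its pair over the 21 libraries, Rps27l, which p53 is known to induce, 9.33% to 19.6%, Rps4l 0.637% to 6.16% and Rpl39l 0% to 5.72%. Rpl3l and Rpl10l did not exceed 0.0569% and 0.0478%. In no comparison did the share of Rpl7l1, Rps27l or Rps4l differ with an adjusted p under 0.88 by the exact permutation test.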

How the data were processed

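Whole-gene counts of 56953 genes in 21 libraries were deposited by the authors as raw featureCounts (1.6.1) counts of fragments, unstranded, after fastp and STAR on GRCm39 with GENCODE vM32. Multi-mapping and multi-overlapping fragments were left out, and other versions are not given in the sources used here. The labels and the study's methods describe library preparation differently (random priming against amplified full-length cDNA). Symbols from GENCODE vM39 matched 56310 genes. Total counts ran from 9667187 to 24152518. Counts were tested with edgeR 4.0.16 (robust quasi-likelihood, TMM, filterByExpr, R 4.3.3) with Benjamini-Hochberg adjustment over every tested gene and a threshold of 0.05. Each genotype comparison used 1 subset, and subset comparisons used all TET2-KO libraries in 1 fit. DESeq2 1.42.0, other filters and scalings, a replicate block and left-out libraries were alternatives, and the code was tested on simulated data. CPM used TMM factors over all libraries, except the olfactory receptor sums and CPM per kilobase, which used library totals alone. Over 8198 genes with a mean CPM above 10, same-numbered libraries deviated together in B-1a and B-2 TET2-KO cells (correlations 0.663, 0.352, 0.407 and 0.680) and in B-1a and B-1b TET2-KO cells (0.516, 0.286 and 0.340), which is the only source of pairing, since the labels give numbers alone. The members and lists were chosen with earlier results of these data known. Named genes were up to 5 in each direction with the largest changes past the threshold, or the 3 smallest p values where fewer than 3 passed, the 5 highest and 5 lowest levels, all paralogues and 11 genes set by name. A few genes and markers are not reported here. Other genes that passed were named after their values were seen. The authors' own comparison values were not used.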

Additional observations from a re-analysis of the deposited data

Results flagged for a closer look

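In 148 groups of at least 4 libraries the highest or lowest CPM of a named gene was checked for a gap to the others beyond Dixon's 95% limit, and 8 groups had one, close to the 1 in 20 that chance gives. In B-1a KO 2, Rplp0 was at 2243 CPM (1731 to 1810 in the other B-1a TET2-KO libraries), Rplp2 at 783 (518 to 558) and Rpl36 at 912 (598 to 627). In B-1a KO 4, Rps10 was at 8.88 CPM (2.71 to 3.40 in the others) and Rpl39l at 8.77 (0 to 0.693). In the libraries labelled B-1a WT 2 and B-1b WT 1, Rpl15 was at 671 CPM (540 to 562) and Rpl7l1 at 247 (168 to 178). In B-2 KO 4, Rpl10l was at 0.134 CPM and at 0 in the other B-2 TET2-KO libraries.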

How the results depend on the processing

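Between B-1a and B-2 TET2-KO cells 16 ribosomal protein genes passed, with the share of all genes that passed given in brackets (5.82%). The count became 36 with DESeq2 (7.77% of genes with a count), 33 with no filter on low counts (3.8%) and 10 with all 21 libraries in 1 fit (3.45%). It was 7 with library totals only (5.9%) and 0 at an absolute log2 fold change over 1 (4.49%). Without 1 library at a time the count ran from 2 to 13, as the report gives by library, with the share of all genes that passed in each of these fits. The replicate block, for which the pairing comes from the data alone, gave 29 (8.83%). With the olfactory rate as a covariate (1.51%), or without B-2 KO 2 and 4 (2.46%), both chosen after seeing the data, it was 0. In the other 6 comparisons 0 of these genes passed under every alternative run, the block included. The number of all genes that passed differed widely between these runs. For B-1b minus B-2 it was 2678 of 44737 with DESeq2 and 667 of 18555 with the block. For B-1a minus B-1b it was 142 of 44737 and 103 of 18555. For genotype it was 184 of 38366 with DESeq2 in B-1a cells and 0 of 14368 with the block in B-1b cells. Leaving out the 5 highest genes gave mean shares of counts of 5.06% (B-1a WT), 5.61% (B-1a TET2-KO), 4.81% (B-1b WT), 4.41% (B-1b TET2-KO), 4.71% (B-2 WT) and 4.41% (B-2 TET2-KO), and leaving immunoglobulin genes out of the total gave 6.38% in B-2 WT. The WT means here include the libraries labelled WT 1 and WT 2. Without division by length 5 of the 10 highest genes were the same. Causes were not tested. Depth limits the results on Rpl10l, Rpl3l, Rpl39l, Rpl24 and Rps10.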
